A study of Mus musculus with 12 samples.

Results

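Transcripts of 10 genes of the major histocompatibility complex (MHC) pathways were followed in mouse haematopoietic stem and progenitor cells. The 10 were taken by gene name from a deposited table of 54532 gene IDs. They comprised 6 genes of the class II pathway (H2-Aa, H2-Ab1, H2-Eb1, Cd74, H2-DMa and Ciita) and 4 of the class I pathway (H2-K1, H2-D1, B2m and Tap1). All 10 passed the filter on low counts, as did 15003 genes in all, and each of the 10 had counts in all 12 libraries.

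The cells were lineage-negative, cKit-positive cells sorted from fresh bone marrow and never cultured. Those called wild type (WT) were Dnmt3a+/+, and the mutant ones (RH) were Dnmt3a fl-R878H/+, with the R878H change on 1 allele of this DNA methyltransferase gene. Both came from C57BL/6 mice crossed with Mx1-cre mice, so all 4 groups carried a Cre transgene under an interferon-inducible promoter. How Cre was induced and the age of the animals were not given in the sources used here. Mice in an in vivo competition experiment received vehicle (VEH) or metformin (MET), a biguanide drug, for 1 month. Both vehicle groups (WT VEH, RH VEH) and both metformin groups (RH MET, WT MET) had 3 libraries, and the labels give 2 animals per treatment group without tying a library to an animal. The p-values therefore measure the spread between libraries, which may be technical in part.

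MHC class I molecules are heavy chains paired with β2-microglobulin that show peptides from inside the cell to CD8 T cells, and nearly all nucleated cells make them. Class II molecules are αβ pairs that show peptides from endosomes to CD4 T cells, and in the marrow they are best known from B cells, dendritic cells and macrophages, with lower levels on some progenitors. Class II genes are switched on together by the coactivator CIITA, which docks on factors bound at a conserved X box and Y box in their promoters, while class I promoters carry a κB element and respond to interferon.

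That shared promoter layout is shown here because it links the genes whose levels are compared. RefSeq promoter windows (GRCm38.p6, 250 bases before to 50 after a start site) were used for 7 of the 10 genes, and H2-Ab1, Cd74 and Ciita were left out. The first pair below shows, in capitals, the X box core GCAAC and the Y box CTGATTGG in 2 class II genes, on the gene's strand. They lie at chr17:34287855-34287916 on the minus strand for H2-Aa and at chr17:34305764-34305824 on the plus strand for H2-Eb1, both upstream of the deposited gene. The second pair shows, in capitals, the κB element GGGGATTCC and CCAATCAG in the 2 class I heavy chain genes. CCAATCAG is the class II Y box string read from its other strand. Whether it serves as the Y box of these 2 genes was not tested. They lie at chr17:34000320-34000470 on the minus strand for H2-K1, reaching 13 bases past the start site, and at chr17:35262911-35263060 on the plus strand for H2-D1. The H2-D1 stretch is upstream of the RefSeq start site but inside the deposited gene, which begins 364 bases before that site.
H2-Aa: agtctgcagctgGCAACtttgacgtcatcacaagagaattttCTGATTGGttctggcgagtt
H2-Eb1: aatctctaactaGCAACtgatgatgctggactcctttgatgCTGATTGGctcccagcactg
H2-K1: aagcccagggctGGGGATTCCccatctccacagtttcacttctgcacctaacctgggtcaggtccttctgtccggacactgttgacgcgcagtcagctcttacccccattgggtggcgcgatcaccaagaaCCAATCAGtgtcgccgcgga
H2-D1: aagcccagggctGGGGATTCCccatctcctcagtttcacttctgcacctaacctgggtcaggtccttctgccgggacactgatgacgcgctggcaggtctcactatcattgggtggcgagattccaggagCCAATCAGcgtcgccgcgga

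The X box core and the Y box began 30 bases apart in H2-Aa and 29 in H2-Eb1. The κB element and CCAATCAG began 119 bases apart in H2-K1 and 118 in H2-D1, and these 2 windows were identical at 89.7% of 242 aligned positions. Searched on both strands, CTGATTGG was in 5 of the 7 windows (H2-Aa, H2-Eb1, H2-K1, H2-D1 and Tap1) and in 4.07% of all 32544 windows. The H2-DMa window, which holds neither the X box core nor the Y box, begins at a RefSeq start site 9664 bases from the start of the deposited gene and is not its promoter there. GGGGATTCC was in the H2-K1 and H2-D1 windows and in 0.252% of all windows. The short GCAAC is common, with 35.1% of all windows holding it. An interferon-response pattern, GAAANNGAA, was in 8.53% of all windows and in that of B2m. Both class I stretches printed above hold tttcacttc after the κB element. Read from the other strand, this has GAA before GAAA, the reverse of the order in that pattern. The reverse order was not searched for, so the search cannot tell which windows lack an interferon element. These are matches of letters only, and a window without a match says nothing of the factors.

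Most of the genes lie in the MHC on chromosome 17 of the build mm10. From the deposited table, H2-K1 (ENSMUSG00000061232) spans 33996017 to 34000333, H2-DMa (ENSMUSG00000037649) 34135182 to 34139101, Tap1 (ENSMUSG00000037321) 34187553 to 34197225 and H2-Ab1 (ENSMUSG00000073421) 34263209 to 34269418. H2-Aa (ENSMUSG00000036594) spans 34282744 to 34287827, H2-Eb1 (ENSMUSG00000060586) 34305877 to 34316199 and H2-D1 (ENSMUSG00000073411) 35262730 to 35267499. B2m (ENSMUSG00000060802) lies on chromosome 2 from 122147686 to 122153083 and Ciita (ENSMUSG00000022504) on chromosome 16 from 10480059 to 10528418, while Cd74 (ENSMUSG00000024610) is on a further chromosome.

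Libraries held 13359583 to 21938003 counts, and the 10 genes together made up 0.218% to 0.379% of them. Levels are CPM, counts scaled to library size with TMM factors, on which 1 CPM stood for 8.37 to 24.8 reads. WT MET 2 and RH VEH 2 stood apart from the other libraries, with 33.3% and 40.8% of counts from the mitochondrial genome against 1.57% to 4.32%. Some fold changes of the 10 genes and some correlations are also given without them. Fold changes of the wider pathway genes and of the marker genes are given only with both included. A further split ran across all groups: 6 libraries, called round 1 here, are also in a smaller deposited table (RH MET 1 and 2, RH VEH 1, WT MET 1, WT VEH 1 and 2), while the other 6 make up round 2. What sets these apart in the laboratory was not given in the sources used here. Kit, whose product defined the sort, held 118 to 200 CPM in all 12 libraries.

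Class I transcripts were far more abundant than class II transcripts. Per kilobase of gene model, B2m stood highest with a mean of 1016 CPM per kb over the 12 libraries, followed by H2-D1 (382) and H2-K1 (350). Cd74 followed with 72.3, and then H2-Ab1 (29.7), Tap1 (29.0), H2-DMa (21.9), H2-Eb1 (21.2) and H2-Aa (15.3). Ciita was lowest, with 0.248 CPM per kb. Between the neighbours H2-D1 and H2-K1, H2-Ab1 and Tap1, and H2-DMa and H2-Eb1, the difference in mean was smaller than the SD of either gene over the 12 libraries, and between H2-Eb1 and H2-Aa it was smaller than that of H2-Eb1.

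The class II genes varied more between libraries than the class I genes. The highest library exceeded the lowest by 4.47-fold for Ciita, 2.96-fold for H2-Eb1, 2.92-fold for H2-Aa, 2.77-fold for Cd74 and 2.53-fold for H2-Ab1, but by 1.62-fold for H2-DMa. The range for the class I genes was 1.40-fold for H2-D1 to 1.97-fold for Tap1. The SD of log2 CPM over the 12 libraries was 0.15 for H2-D1 and 0.60 for Ciita, with a median of 0.31 for the 10 genes and 0.32 for all genes tested.

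The 3 classical class II chains were present in every library. H2-Aa, the α chain of I-A, held 33.2, 24.7 and 31.4 CPM in WT VEH 1 to 3, 32.3, 24.4 and 36.2 in WT MET, 23.5, 19.7 and 41.7 in RH VEH, and 16.9, 15.6 and 45.6 in RH MET. RH MET thus held both the highest and the lowest libraries, and no pair of groups was apart. H2-Ab1, its β chain partner, held 69.9, 41.3 and 50.5 CPM in WT VEH, 50.2, 47.5 and 55.1 in WT MET, 52.8, 44.4 and 54.8 in RH VEH, and 37.9, 27.6 and 51.6 in RH MET. Its lowest 2 libraries were RH MET 1 and 2, while RH MET 3 lay among the other groups. H2-Eb1, the β chain of I-E, held 36.7, 20.6 and 24.1 CPM in WT VEH, 25.9, 27.8 and 26.6 in WT MET, 22.97, 19.7 and 35.1 in RH VEH, and 16.7, 12.4 and 33.1 in RH MET. Again RH MET 1 and 2 were lowest and the groups overlapped. H2-Ea-ps, the gene of the I-E α chain, had 0 counts in every library, so the H2-Eb1 values do not show that I-E was made.

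Cd74 and H2-DMa serve the class II chains on their way to the surface. Cd74, the invariant chain that fills the groove until the endosome, held 165, 96.5 and 107 CPM in WT VEH, 116, 91.8 and 90.1 in WT MET, 93.8, 81.6 and 135 in RH VEH, and 78.1, 59.7 and 109 in RH MET. WT VEH 1 was the highest library and RH MET 1 and 2 the lowest, and all groups overlapped. H2-DMa, a chain of the H2-M molecule that exchanges the invariant chain peptide for others, held 36.0, 30.1 and 42.1 CPM in WT VEH, 42.9, 39.8 and 38.8 in WT MET, 39.9, 31.4 and 38.8 in RH VEH, and 26.5, 33.1 and 32.1 in RH MET. All 3 RH MET libraries lay below all 3 WT MET libraries.

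Ciita, the coactivator of the class II genes, was near the limit of what the depth resolved, with 18 to 110 counts per library. It held 1.66, 1.66 and 1.98 CPM in WT VEH, 1.77, 1.83 and 2.25 in WT MET, 2.46, 2.63 and 5.07 in RH VEH, and 1.49, 1.13 and 4.43 in RH MET. All 3 RH VEH libraries lay above all 3 WT VEH libraries, and RH VEH 3 and RH MET 3 stood above all others. Ciita overlaps Dexi on the opposite strand, and the strand setting of the counting was not given in the sources used here. Dexi held 9.05 CPM in RH VEH 3 and 10.8 in RH MET 3, and 7.69 to 12.9 CPM in the other 10 libraries. Whether its reads add to the Ciita values was not tested.

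**Figure D1:**
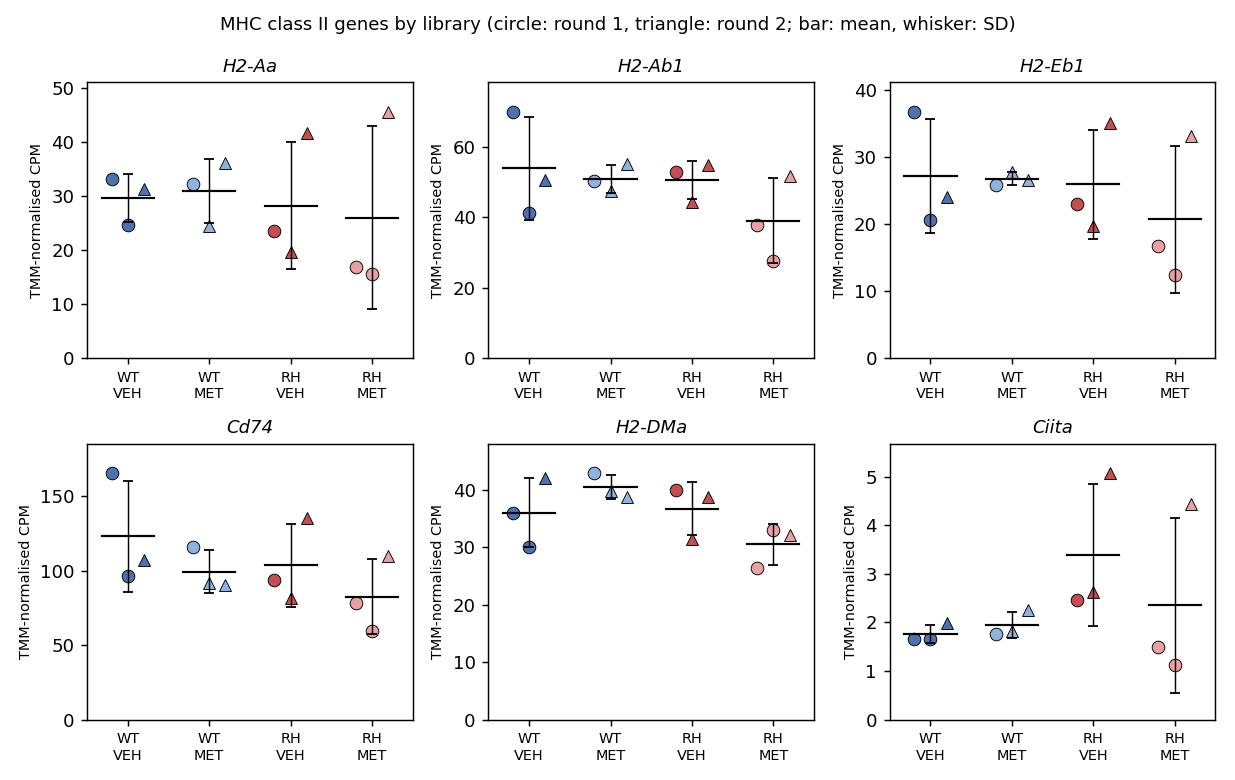
TMM-normalised CPM of the 6 class II pathway genes in each library of the 4 groups, with the group mean (bar) and SD (whisker, n = 3); circles are round 1 and triangles round 2. RH MET 1 and 2 are the lowest libraries for H2-Aa, H2-Ab1, H2-Eb1 and Cd74, while RH MET 3 lies with the other groups or above them.

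The 2 classical heavy chains of class I were among the most abundant of all tested genes. H2-K1 held 939, 883 and 964 CPM in WT VEH, 932, 1237 and 951 in WT MET, 867, 1132 and 810 in RH VEH, and 682, 736 and 814 in RH MET. All 3 RH MET libraries lay below all 3 WT MET libraries, and these groups did not overlap for 16.9% of all genes tested. The highest values were those of WT MET 2 and RH VEH 2, the pair rich in mitochondrial transcripts. H2-D1 held 1144, 979 and 1002 CPM in WT VEH, 1016, 1048 and 1070 in WT MET, 1039, 1068 and 835 in RH VEH, and 817, 896 and 909 in RH MET. Here too each RH MET library lay below each WT MET library. Reads from near-identical heavy chain genes are a concern for such genes. Of 2591 stretches of 150 bases in H2-D1 transcripts, 35 (1.35%) also occur in H2-Q1 transcripts, and none of those of H2-K1 occur in another gene's (GENCODE M21).

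B2m and Tap1 complete the class I pathway. B2m, the light chain of all class I molecules, held 814, 1093 and 899 CPM in WT VEH, 1028, 700 and 931 in WT MET, 686, 855 and 919 in RH VEH, and 765, 727 and 1066 in RH MET. Its groups overlapped throughout. Tap1, a subunit of the peptide transporter into the endoplasmic reticulum, held 138, 159 and 156 CPM in WT VEH, 146, 214 and 170 in WT MET, 141, 234 and 142 in RH VEH, and 119, 131 and 158 in RH MET. As with H2-K1, WT MET 2 and RH VEH 2 were the highest. Tap1 overlaps Psmb9, so reads there may be shared between the genes.

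**Figure D2:**
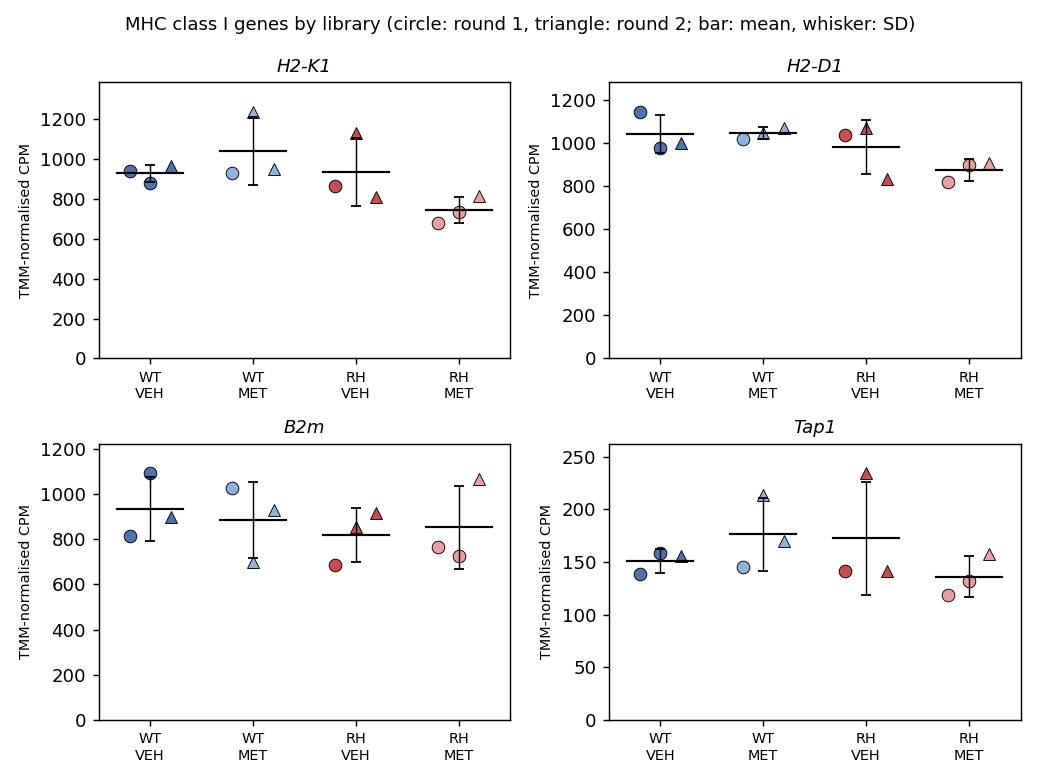
TMM-normalised CPM of the 4 class I pathway genes in each library of the 4 groups, with the group mean (bar) and SD (whisker, n = 3); circles are round 1 and triangles round 2. The RH MET libraries of H2-K1 and H2-D1 lie below the WT MET libraries, and WT MET 2 and RH VEH 2 are highest for H2-K1 and Tap1.

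Differences were tested with edgeR's quasi-likelihood test over all 15003 genes, with group means and round in the model, and called genes are those whose p, adjusted by Benjamini-Hochberg, was under 0.05. None of the 10 genes was called in any of the 7 comparisons, and DESeq2 called none of them either. The comparisons share libraries, so their values are not independent of each other.

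In mutant against wild-type cells under metformin, 9 of the 10 genes had negative fold changes. Those of H2-K1 and H2-DMa were the most marked relative to their errors. H2-K1 averaged 744 ± 66.4 CPM in RH MET and 1040 ± 171 in WT MET (SD, n = 3 each), a log2 fold change of -0.43 ± 0.15 (SE, edgeR, unadjusted p = 0.0161, adjusted p = 0.738). H2-DMa averaged 30.5 ± 3.55 against 40.5 ± 2.14 CPM, a log2 fold change of -0.40 ± 0.17 (edgeR, unadjusted p = 0.0358, adjusted p = 0.738). For H2-D1 the averages were 874 ± 49.6 and 1045 ± 27.3 CPM, with a log2 fold change of -0.26 ± 0.14 (edgeR, unadjusted p = 0.0774, adjusted p = 0.738).

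Read against all genes, this was a comparison in which many genes parted. The groups did not overlap for 3 of the 10 genes (H2-K1, H2-DMa and H2-D1), and for 16.9% of all genes tested. An unadjusted p under 0.05 was reached by 2 of the 10 and by 5.78% of all genes, and an adjusted one by 0 of the 10 and 0.00667% of all genes. The median log2 fold change was -0.27 for the 10 genes and -0.02 for all genes tested. For the other genes H2-Ab1 gave -0.35 ± 0.23 (edgeR, unadjusted p = 0.149, adjusted p = 0.738) and Tap1 -0.27 ± 0.18 (edgeR, unadjusted p = 0.162, adjusted p = 0.738). Ciita was the exception in sign, at 0.35 ± 0.41.

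Without WT MET 2 and RH VEH 2, the value for H2-K1 was -0.32 (edgeR, unadjusted p = 0.0271), that for H2-DMa -0.40 and that for H2-D1 -0.26. When each of the 12 libraries was left out in turn, H2-K1 ranged from -0.49 to -0.32 and had an unadjusted p under 0.05 in 10 of 12 fits. H2-DMa ranged from -0.45 to -0.29 with 6 of 12 such fits, and H2-D1 from -0.31 to -0.20 with 0 of 12.

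In mutant against wild-type cells under vehicle, the values were closer to 0. The median log2 fold change of the 10 genes was -0.10, with 7 negative, and it was 0.01 with 5 negative without WT VEH 1 and -0.19 with 8 negative without WT VEH 3. Ciita averaged 3.38 ± 1.46 CPM in RH VEH and 1.77 ± 0.189 in WT VEH, with a log2 fold change of 0.67 ± 0.42 (edgeR, unadjusted p = 0.138, adjusted p = 0.977). It was the 1 gene of the 10 whose groups did not overlap, against 5.95% of all genes tested. None of the 10 had an unadjusted p under 0.05 (2.03% of all genes) or was called (0% of all genes). B2m averaged 820 ± 120 CPM against 935 ± 143, with a log2 fold change of -0.24 ± 0.20 (edgeR, unadjusted p = 0.266, adjusted p = 0.977).

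Averaged over both treatments, the mutant genotype gave negative values for all but Ciita, with a median log2 fold change of -0.21. H2-K1 averaged 840 CPM in the 6 RH libraries and 984 in the 6 WT libraries, a log2 fold change of -0.24 ± 0.10 (edgeR, unadjusted p = 0.0429, adjusted p = 1). It was the 1 gene of the 10 with an unadjusted p under 0.05, a mark reached by 2.65% of all genes. None of the 10 was called (0.00667% of all genes) or had groups that did not overlap (0.0933% of all genes). Ciita averaged 2.87 CPM in RH and 1.86 in WT, at 0.51 ± 0.29 (edgeR, unadjusted p = 0.105, adjusted p = 1). H2-Eb1 gave -0.25 ± 0.23 (edgeR, unadjusted p = 0.287, adjusted p = 1) and H2-Aa -0.23 ± 0.25 (edgeR, unadjusted p = 0.381, adjusted p = 1).

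Metformin against vehicle gave small values in wild-type cells. The median log2 fold change of the 10 genes was -0.09, with 6 negative, and ranged from -0.33 for Cd74 to 0.16 for H2-DMa. The sign of this median turned without WT VEH 1 (0.09), without RH MET 3 (0.01), without the round term (0.03) and without WT MET 2 and RH VEH 2 together (0.003). It also turned with a block by column number in place of round (0.02) and in round 2 alone (0.004). None of the 10 was called (0% of all genes), had an unadjusted p under 0.05 (4.03%) or had groups that did not overlap (9.38%). In mutant cells 9 of the 10 were negative, with a median of -0.26 and a range from -0.41 for Ciita to 0.09 for B2m. There, too, none was called (0% of all genes), had an unadjusted p under 0.05 (2.43%) or had groups that did not overlap (6.92%). These values rest on RH MET 3 and on the round. Without RH MET 3 all 10 were negative, with a median of -0.48 and 4 at an unadjusted p under 0.05 by edgeR (462 of 15410 genes in that fit). In round 1 alone the median was -0.44 with 9 negative, and in round 2 alone 0.05 with 4 negative.

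The difference between these metformin effects, mutant minus wild type, had a median of -0.20 over the 10 genes. None of the 10 was called (0% of all genes) or had an unadjusted p under 0.05 (6.21%). Averaged over both genotypes, metformin gave negative values for all 10, with a median of -0.08. In round 1 alone 9 were negative with a median of -0.19, and in round 2 alone 3 were negative with a median of 0.03. Without RH MET 3 the median was -0.23, with 2 at an unadjusted p under 0.05 by edgeR (225 of 15410 genes in that fit). Cd74 averaged 90.8 CPM under metformin and 113 under vehicle, a log2 fold change of -0.32 ± 0.19 (edgeR, unadjusted p = 0.12, adjusted p = 1). None was called (0% of all genes), had an unadjusted p under 0.05 (1.63%) or had groups that did not overlap (0.0733%).

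**Figure D3:**
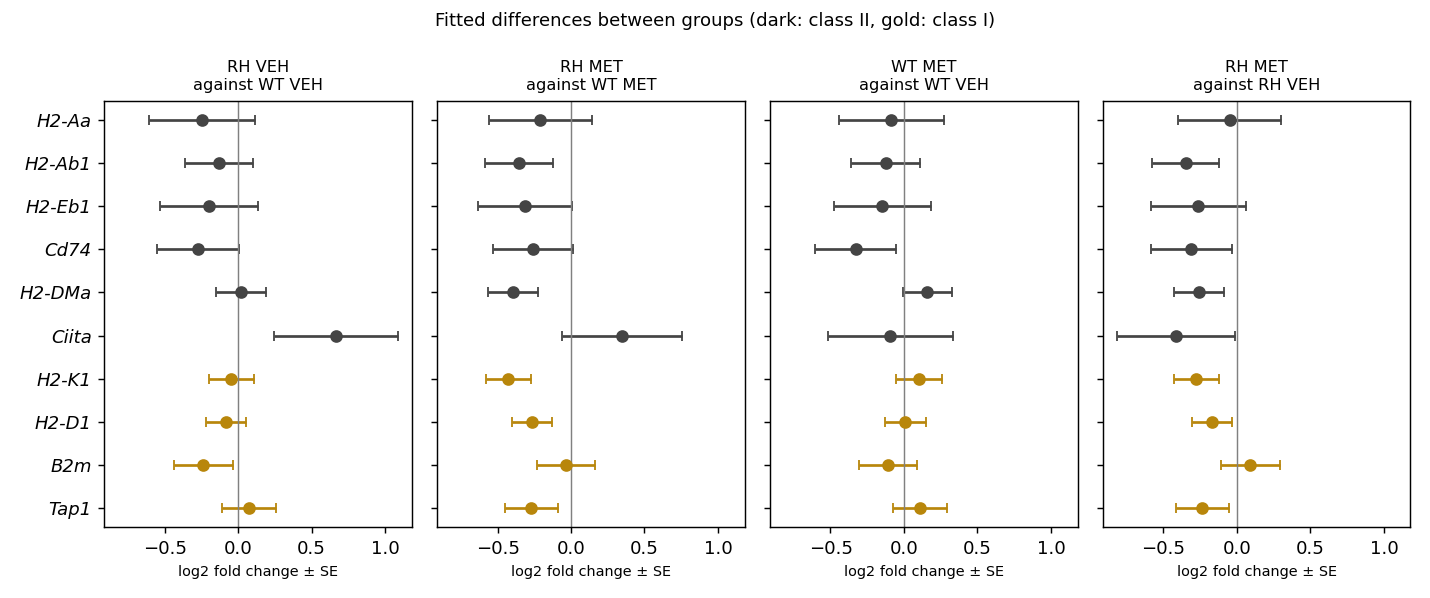
Log2 fold change ± SE (edgeR, 12 libraries, round in the model) of the 10 genes in the 4 comparisons of single groups; dark points are class II and gold points class I. For RH MET against WT MET, H2-K1 (-0.43) and H2-DMa (-0.40) lie farthest below 0 relative to their errors, and Ciita lies above 0 where RH is set against WT.

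The class II genes differed between rounds in the genotype comparison. In round 1, RH MET 1 and 2 against WT MET 1 gave a median log2 fold change of -0.68 over the 6 class II genes, and in round 2, RH MET 3 against WT MET 2 and 3 gave 0.30. A group with 1 library is assumed to vary like the others in these fits. H2-Aa went from -0.98 ± 0.24 in round 1 (edgeR, unadjusted p = 0.00199, adjusted p = 0.399) to 0.61 ± 0.51 in round 2. H2-Eb1 went from -0.83 to 0.31 and Cd74 from -0.75 to 0.29. Ciita was at -0.43 in round 1 and 1.13 in round 2. The difference between rounds was not tested.

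The class I heavy chains gave like values in both rounds. For the same comparison H2-K1 was at -0.39 ± 0.19 in round 1 and -0.40 ± 0.34 in round 2, H2-D1 at -0.24 and -0.20, and Tap1 at -0.21 and -0.26. In round 2, H2-K1 held 814 CPM in RH MET 3, 1237 in WT MET 2 and 951 in WT MET 3. For Tap1 these were 158, 214 and 170 CPM, so both round 2 values rest in part on WT MET 2, rich in mitochondrial transcripts. B2m differed from the heavy chains and Tap1, at -0.46 in round 1 and 0.41 in round 2. H2-DMa, alone among the class II genes, was negative in both, at -0.52 and -0.27. None of the 10 genes was called in either round.

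With genotype averaged over treatments, the class II median was -0.46 in round 1 and 0.19 in round 2. In round 1, where some groups held 1 library, H2-Aa gave -0.64 ± 0.17, Cd74 -0.62 ± 0.22, H2-Eb1 -0.58 ± 0.24 and B2m -0.47 ± 0.16. None of them was called. In round 2 the same genes gave 0.28, 0.14, 0.24 and 0.18.

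**Figure D4:**
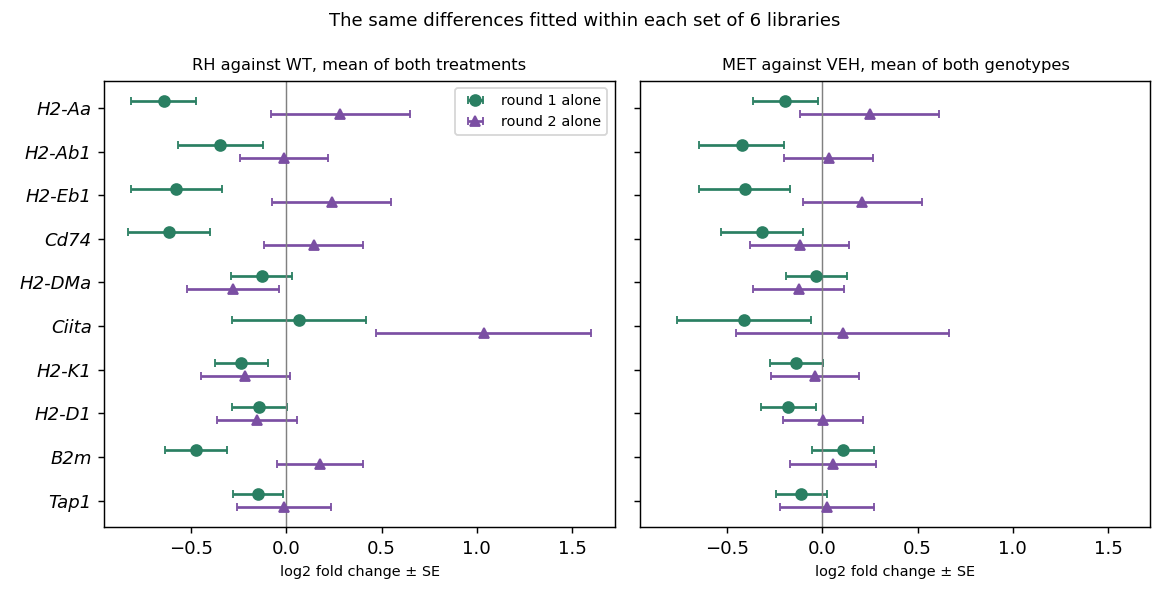
Log2 fold change ± SE (edgeR) of the 10 genes fitted in the 6 libraries of round 1 (circles) and of round 2 (triangles), for genotype averaged over treatments and metformin averaged over genotypes. H2-Aa, H2-Eb1, Cd74 and B2m lie below 0 in round 1 and above 0 in round 2 for genotype, while H2-K1 and H2-D1 lie below 0 in both.

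The class II genes moved together across libraries. Over the 12 libraries, Pearson's r of log2 CPM was 0.92 for H2-Ab1 with H2-Eb1, 0.90 for H2-Eb1 with Cd74 and 0.89 for H2-Aa with H2-Eb1. The 15 pairs of class II genes had a median r of 0.64 (0.17 to 0.92), and 0.71 without WT MET 2 and RH VEH 2. The 6 class I pairs had a median of 0.28 (-0.07 to 0.88) and the 24 pairs across classes 0.21 (-0.20 to 0.61), which were 0.58 and 0.41 without those 2 libraries. Within class I, H2-K1 went with Tap1 (0.88, and 0.73 without them) and H2-D1 (0.76, and 0.85). For B2m the values turned on that pair: r was -0.05 with H2-K1 and 0.05 with Tap1 over the 12 libraries, and 0.39 and 0.68 without them. These r are descriptions, since the libraries share groups, rounds and preparation.

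As a summary, each gene's log2 CPM was put on a common scale of SD units from its mean and averaged over its class. The class II average was highest in RH VEH 3 (1.13), WT VEH 1 (0.83) and RH MET 3 (0.71), and lowest in RH MET 2 (-1.65) and RH MET 1 (-1.21). The class I average was highest in RH VEH 2 (1.06) and WT MET 2 (0.71), and lowest in RH MET 1 (-1.39) and RH MET 2 (-1.004). RH MET 1 and 2 were thus the lowest libraries for both classes, and the highest libraries of the classes were different ones.

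Transcripts of other cell types varied with the class II level in these sorted cells. Of 18 T and NK cell markers such as Cd3e, Trac and Ncr1, all 18 were tested and none was at 0 in all libraries. Their summed level was 84.2 to 121 CPM in WT VEH, 111 to 140 in WT MET, 94.6 to 138 in RH VEH and 55.5 to 115 in RH MET, where RH MET 1 and 2 held 55.5 and 65.3. In RH MET against WT MET, 17 of the 18 were negative, with a median log2 fold change of -1.25, 12 at an unadjusted p under 0.05 (edgeR, 5.78% of all genes) and 0 called (0.00667% of all genes). Pearson's r between their summed log level and the class II average was 0.88 over the 12 libraries and 0.92 without WT MET 2 and RH VEH 2. The class I average gave 0.59 and 0.69. Mouse T cells make little class II, and the part of these cells in the class II values was not tested.

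Markers of the cell types best known for class II varied with it to differing degrees. The dendritic cell markers (16 listed, 15 tested, none at 0 in all libraries) summed to 184 to 221 CPM in WT VEH, 218 to 271 in WT MET, 174 to 232 in RH VEH and 182 to 205 in RH MET, so that each WT MET library exceeded each RH MET library. Their r with the class II average was 0.58, and 0.80 without the pair of libraries rich in mitochondrial transcripts. In RH MET against WT MET, 13 of the 15 were negative, with a median log2 fold change of -0.61. For 3 of them the unadjusted p was under 0.05 (edgeR, 5.78% of all genes), and 0 were called (0.00667% of all genes). All 15 B cell markers were tested and none was at 0 in all libraries. Their sum was 1059 to 1539 CPM in WT VEH, 577 to 1225 in WT MET, 884 to 1139 in RH VEH and 970 to 2188 in RH MET, with an r of 0.03. In RH MET against WT MET, 8 of the B cell markers were positive and 7 negative, with a median log2 fold change of 0.05. An unadjusted p under 0.05 was reached by 1 of them, higher in RH MET (edgeR, 5.78% of all genes).

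That B cell sum was largely 1 gene. Ighm, the heavy chain of IgM, made up 92.0% to 97.8% of it in each library, and its own r with the class II average was 0.01. Without Ighm, an alternative chosen after the data were seen, the B cell markers summed to 22.6 CPM in RH MET 2, the lowest library, 71.7 in RH VEH 3 and 73.6 in WT MET 2, the highest. Their r with the class II average was then 0.67, and 0.82 without WT MET 2 and RH VEH 2. Of the single genes, Cd79a, a chain of the B cell receptor complex, gave 0.79. All 15 gave a positive r, with a median of 0.55, against a median of 0.69 for the single T and NK cell markers and 0.41 for the dendritic cell markers.

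Among markers of the remaining cell types, 0 were called in RH MET against WT MET. All 13 granulocyte markers were positive there (median log2 fold change 0.93), while all 8 tested megakaryocyte markers (-0.68), all 12 erythroid markers (-0.26) and 10 of 11 endothelial and stromal markers (-0.45) were negative. Their sums had an r with the class II average of 0.17, -0.16, 0.51 and 0.59, in that order. In WT MET 1 to 3, the granulocyte markers summed to 3589, 1500 and 5898 CPM, against 4511 to 7085 in RH MET. The megakaryocyte markers summed to 1003, 1870 and 719 CPM, against 706 to 754 in RH MET. WT MET 2, rich in mitochondrial transcripts, was thus the extreme of both, and these fold changes are not given without it. The monocyte and macrophage markers (16 of 16 tested) ran from 122 CPM in RH VEH 2 to 564 in WT VEH 3, with an r of 0.48. In RH MET against WT MET, 11 of them were positive, with a median log2 fold change of 0.20. Of the 14 stem and progenitor markers, Kit among them, 10 were negative there, with a median of -0.25. An unadjusted p under 0.05 was reached by 2 of the 14 (edgeR, 5.78% of all genes), and their sum had an r of 0.31. In bulk RNA, fewer cells of a type and less RNA per cell cannot be told apart, and the part of any of these cells in the MHC values was not tested.

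**Figure D5:**
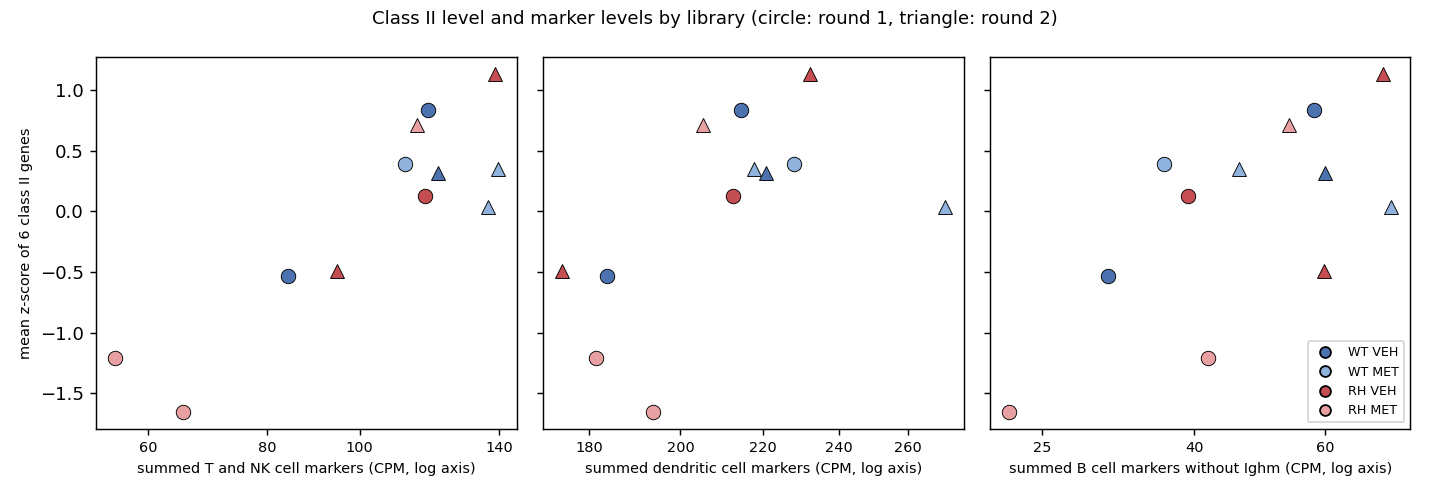
Mean of the standardised log2 CPM of the 6 class II genes against the summed CPM of T and NK cell, dendritic cell and B cell markers, the last without Ighm (log axes), 1 point per library; circles are round 1 and triangles round 2. RH MET 1 and 2 are lowest in class II level and in T and NK cell markers, and RH MET 2 is lowest in B cell markers.

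Among all other tested genes, those whose log2 CPM was most like the class II average over the 12 libraries were Thy1, a surface glycoprotein of T cells and some stem cells (r = 0.92), the interleukin-2 receptor chain Il2rb (0.91), the chemokine receptors Cxcr5 (0.90) and Cxcr3 (0.88), and the membrane protein Tmem176b (0.88). Thy1 ran from 5.02 CPM in RH MET 2 to 19.6 in RH VEH 3. Cxcr5 was low throughout, at 0.108 to 0.885 CPM. Without WT MET 2 and RH VEH 2, Thy1 was the 1 of these 5 still among the top 5. For the class I average the top 5 were Zfp976 (0.90), Asb2 (0.89), Zfp523 (0.89), Spo11 (0.88) and Ephb4 (0.88), and 0 of them were still among the top 5 without that pair.

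The wider pathway gave no called gene in any comparison. Among 5 tested genes of the other class II chains and chaperones, H2-DMb1, a β chain of the H2-M molecule, averaged 11.99 CPM in RH MET and 17.6 in WT MET, with groups that did not overlap and a log2 fold change of -0.53 ± 0.25 (edgeR, unadjusted p = 0.0596, adjusted p = 0.738). H2-Eb2, a further β chain, gave -1.14 ± 0.73 for WT MET against WT VEH (edgeR, unadjusted p = 0.143, adjusted p = 0.876) at levels below 1 CPM. The 5 genes had a median of -0.17 for RH MET against WT MET, with 3 negative. Of the class II processing genes, 11 of 13 were tested, and their median in that comparison was 0.05. Ifi30, a thiol reductase of endosomes, gave -0.32 ± 0.17 there (edgeR, unadjusted p = 0.0869, adjusted p = 0.738), and the costimulator Cd80 gave 1.16 ± 0.62 for RH MET against RH VEH (edgeR, unadjusted p = 0.0865, adjusted p = 0.932).

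The factors that act with CIITA on class II promoters went both ways. All 8 listed genes of the RFX, NF-Y and CREB factors and their partners were tested, with 5 positive and 3 negative, a median log2 fold change of 0.03 for RH MET against WT MET and none at an unadjusted p under 0.05 in edgeR. Groups did not overlap for 2 of the 8, Creb1 (higher in RH MET) and Nfyb (lower in RH MET), against 16.9% of all genes tested. Creb1 averaged 73.6 CPM in RH MET and 64.0 in WT MET, at 0.25 ± 0.14 (edgeR, unadjusted p = 0.0947, adjusted p = 0.738). Nfyb, a subunit of the NF-Y factor that binds the Y box, gave -0.23 ± 0.16 for RH MET against RH VEH (edgeR, unadjusted p = 0.18, adjusted p = 0.932).

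Other class I chains and the immunoproteasome leaned the same way as H2-K1 and H2-D1 in RH MET against WT MET. Of 23 other class I chains listed, 15 were tested and 11 were negative, with a median of -0.27, and 4 had an unadjusted p under 0.05 in edgeR (5.78% of all genes). Groups did not overlap for 8 of the 15, against the 16.9% of all genes given above, though near-identical chains may share reads. In WT MET 1 to 3, H2-Q6 held 223, 423 and 162 CPM and H2-Q4 held 191.5, 413.5 and 137. WT MET 2, rich in mitochondrial transcripts, was thus highest for both, and no value for these chains is given without it. H2-Q7, a Qa class I gene, averaged 82.1 CPM in RH MET and 133 in WT MET, at -0.53 ± 0.19 (edgeR, unadjusted p = 0.014, adjusted p = 0.738), and H2-T23, which encodes Qa-1, gave 102 against 142 CPM at -0.41 ± 0.16 (edgeR, unadjusted p = 0.0239, adjusted p = 0.738).

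All 5 genes of the immunoproteasome list (Psmb8, Psmb9, Psmb10, Psme1 and Psme2) were negative in RH MET against WT MET, with a median of -0.37. Their products take part in making peptides for class I. Psmb10 averaged 45.4 CPM against 64.3, at -0.49 ± 0.22 (edgeR, unadjusted p = 0.0468, adjusted p = 0.738), and its groups did not overlap. It held 54.3, 78.8 and 59.8 CPM in WT MET 1 to 3. Psmb9 gave -0.49 ± 0.20 for RH MET against RH VEH (edgeR, unadjusted p = 0.0272, adjusted p = 0.932). It held 54.6, 92.0 and 50.6 CPM in RH VEH 1 to 3. The highest values were thus those of WT MET 2 and RH VEH 2, and neither fold change is given without these libraries. The 7 peptide-loading genes had a median of -0.02 for RH MET against WT MET. Tapbp, which encodes tapasin, gave -0.25 ± 0.12 there (edgeR, unadjusted p = 0.0581, adjusted p = 0.738), and the trimming peptidase Erap1 gave 0.32 ± 0.20 for RH MET against RH VEH (edgeR, unadjusted p = 0.128, adjusted p = 0.932).

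Interferon-gamma is a strong inducer of both MHC pathways, and 23 of 24 listed genes of its signalling and of class I transcription were tested. In RH MET against WT MET, 15 were negative and the median was -0.07. Ifng held 3.36, 3.25 and 4.08 CPM in WT MET and 0.545, 0.755 and 1.25 in RH MET, and the groups did not overlap. Its log2 fold change was -2.04 ± 0.44 (edgeR, unadjusted p = 0.000475, adjusted p = 0.738). Ifng is made by T and NK cells, whose markers differed in the same direction between these groups, and their part in its value was not tested.

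Irf1, a transcription factor induced by interferon-gamma, held 63.9, 54.9 and 39.6 CPM in WT MET and 39.3, 33.1 and 31.3 in RH MET. Its groups did not overlap, by a margin of less than 1 CPM, and its log2 fold change was -0.67 ± 0.19 (edgeR, unadjusted p = 0.0041, adjusted p = 0.738). Averaged over treatments, Irf1 gave -0.59 ± 0.13 (edgeR, unadjusted p = 0.0007, adjusted p = 0.677). Nlrc5, the coactivator of class I genes, averaged 37.6 CPM in RH MET and 39.8 in WT MET, and its fitted value, with round in the model, had the opposite sign to that difference, at 0.12 ± 0.23 (edgeR, unadjusted p = 0.611).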

How the data were processed

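The authors deposited raw whole-number counts of reads per gene, not normalized. STAR 2.5, HTSeq 0.6.1 and mm10 are named, with no settings, per the submitters' processing notes, and the handling of strand and of reads that map to several places was not given in the sources used here. Shared reads between class I genes or overlapping genes could therefore be lost or counted for either. The labels' protocols name total RNA, NEBNext Ultra libraries and 150-base paired reads.

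One deposited table held 12 libraries and was used throughout. A smaller one held 6 of the same columns, and 2 of its columns matched no sample and were not used. Library numbers are those of the table's columns and can differ from those in the labels, where a column's group is known and its exact sample is not.

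Counts were fitted with edgeR 4.0.16 in R 4.3.3 (TMM, filterByExpr, robust quasi-likelihood, a mean per group plus round), and p-values were adjusted by Benjamini-Hochberg over 15003 genes per comparison. SE is the absolute log2 fold change divided by the square root of F. Correlations used log2 CPM with a prior count of 2. The biological coefficient of variation was 0.256. The procedure was tested on simulated data. Alternatives were DESeq2 1.42.0, RLE factors, mitochondrial genes left out, no filter, no round term, a block by column number, each library left out, the 2 libraries of high mitochondrial share left out, each round alone and plain CPM.

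The 10 genes, the wider lists and the markers were chosen with earlier results of these data known. The rule for named genes gave each of the 10 its values in the comparison of smallest p and wherever the unadjusted p was under 0.05, and each wider list its 2 genes of smallest p over the comparisons of single groups. It also gave the 5 genes most like each class average. Nlrc5, Kit, Dexi, the B cell sum without Ighm, single B cell markers, the values of further comparisons and the values within rounds were added after the data were seen.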

Additional observations from a re-analysis of the deposited data

How the results depend on the processing

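No alternative brought any of the 10 MHC genes past the threshold: 0 were called in each comparison by DESeq2, by edgeR without the filter and in every other setting run. Of 231 fold changes recomputed for the named comparisons, 228 kept their sign and 3 reversed, all in round 2 alone: H2-Aa (0.28) and H2-Eb1 (0.24) for genotype over both treatments, and H2-Ab1 (0.029) for RH MET against WT MET. The cause was not tested. These comparisons were picked by small unadjusted p, so the count does not describe how often the signs of other comparisons turned. Without RH MET 3, the H2-Ab1 value was -0.67 and those of H2-Aa, H2-Eb1 and Ciita for genotype were -0.48, -0.46 and 0.24. Without WT VEH 1, the last comparison gave -0.14 for H2-Aa and -0.07 for H2-Eb1, and Cd74 gave -0.17 for metformin over both genotypes.

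Counts of called genes among all genes moved more, and the cause was not tested. In the order RH VEH against WT VEH, RH MET against WT MET, WT MET against WT VEH, RH MET against RH VEH, the difference of metformin effects, mean genotype and mean metformin, the counts as reported were 0, 1, 0, 0, 0, 1 and 0. With no filter they were 175, 362, 218, 229, 431, 119 and 63. DESeq2 called 3, 22 and 1 genes in the first 3 and 17 for mean genotype. Without the 2 libraries of high mitochondrial share there were 3, 1, 1 and 3 for the first, the fourth, the fifth and mean genotype. Round 1 alone gave 2, 0, 3, 3, 2 and 2 (all but WT MET against WT VEH), and round 2 alone 0 for RH MET against WT MET and for mean genotype. Without the round term RH MET against WT MET gave 0. Leaving out each library in turn gave 0 to 2, 0 to 2, 0 to 0, 0 to 1, 0 to 1, 1 to 2 and 0 to 0.

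Column numbers are not given as pairs by the labels. Deviations from group means correlated at a median of 0.152 (-0.014 to 0.489) for 18 same-numbered pairs of libraries and -0.152 for 36 others, and the numbers partly follow the rounds. With the replicate block by column number, 2 genes were called for RH VEH against WT VEH and 0 of the 10 MHC genes.

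With plain CPM, 35 of 40 group means of the 10 genes moved by less than 1 SD. The others were H2-Eb1 in WT MET (25.4 CPM), H2-K1 in WT VEH (996) and RH MET (821), and H2-D1 in WT MET (995) and RH MET (964). Depth limits Ciita most, at 18 to 110 counts per library.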
